A study of Mus musculus with 6 samples.

Results

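The genes described here are those of motile cilia and of the ependymal cells that line the brain ventricles, measured by RNA-seq in mouse tissue with and without a large enhancer of Atoh7. They were chosen by name: all listed genes whose symbol starts with Dnah, Cfap, Rsph or Tekt and a digit, and 17 further genes of the axoneme, of ependymal cells and of the multiciliated cell programme. The rule found 57 genes among the 24411 symbols listed in each library. Of these, 54 passed the filter on low counts and were tested, and Rsph6a, Tekt3 and Mcidas did not pass it.

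RNA was sequenced in bulk from 3 samples of mice with the Atoh7 large enhancer knocked out (enhancer KO) and from 3 wild-type samples (WT), all taken at postnatal day 18. The labels describe no other allele, no treatment, no strain and no sex. Their protocol and design text name the cerebellum, while their tissue field reads retina. The labels do not say that each replicate is a separate animal, so p-values measure the spread between these samples, which may be technical.

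Atoh7 itself was counted first. It had 28, 33 and 29 reads in the enhancer KO libraries, against 63, 42 and 72 reads in the WT libraries. Relative to library size this was 0.766 ± 0.0835 CPM (counts relative to the scaled library size) in enhancer KO and 2.04 ± 0.0945 CPM in WT (SD, n = 3 each). The 2 ranges did not overlap, and the log2 fold change of enhancer KO over WT was -1.41 ± 0.205 (SE) at a Benjamini-Hochberg adjusted p of 0.000353 in edgeR's quasi-likelihood test.

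Gene reads numbered 36849747 to 40858310 in the enhancer KO libraries and 22812075 to 33076111 in the WT libraries. Reads outside annotated exons made up 16.8% to 18.2% of all reads in enhancer KO and 31.1% to 34.1% in WT (exact two-sided permutation p = 0.1, the smallest that 3 libraries against 3 can give). Whether this moved any result below was not tested beyond the alternative settings. WT replicate 2 stood apart, with 20.4% of its reads unmapped, against 7.79% to 8.32% in the other libraries, and with 143857 CPM of the ribosomal RNA gene Rn45s, against 14712 to 29566 CPM. Without it the Tekt5 and 1700012B09Rik calls below were lost. Xist was high and Ddx3y without reads in WT replicate 1 and in no other library, and no gene of the set that could be located lies on X or Y. The summed level of 10 Purkinje cell markers was 5820 CPM in enhancer KO and 4587 CPM in WT. That of 12 photoreceptor markers was 12.3 CPM in enhancer KO and 8.82 CPM in WT, so the libraries carry the markers of the cerebellum named in the protocol.

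A motile cilium is built on a ring of doublet microtubules around a central pair. Outer and inner dynein arms on the doublets make the doublets slide, and radial spokes and the central apparatus regulate the arms. In the brain, such cilia stand in tufts on ependymal cells and move cerebrospinal fluid over the ventricle wall. The multiciliated state is set up by Gmnc and Mcidas, and the transcription factors Foxj1, Rfx2 and Rfx3 switch on the genes of the axoneme. RFX factors read a near-palindromic site called the X-box. Choroid plexus epithelial cells are also multiciliated and share part of this programme, and tektins and several axonemal genes serve the sperm tail as well.

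The X-box is shown first because it is a sequence property that the choice of genes did not use. The search covered RefSeq promoter windows of 250 bases before to 50 after each annotated start (GRCm38.p6, the build of the deposited data) on both strands. RefSeq windows were found for 50 of the 57 genes. A 14-base form, with the half-sites GTTNCC and GNAAC held apart by 3 bases, was present in 6 of these 50 (12%) and in 0.936% of 27025 genes with a window. A 13-base form, with the half-sites GTTNC and GNAAC held apart by 3 bases, was added after the sequences were seen, and was present in 8 of the 50 (16%), against 1.12% of all genes. Tekt4 held both forms at separate sites, so 13 of 50 (26%) held at least 1 form, against 2.04% of all genes. The windows below run 5′ to 3′ on the strand given, with 20 bases on each side, and the capitals mark the X-box match. Spag16 holds the 14-base form as spelled, while Hydin, Cfap44 and Cfap45 hold its reverse complement (GTTNC, 3 bases, GGNAAC).
Hydin, + strand: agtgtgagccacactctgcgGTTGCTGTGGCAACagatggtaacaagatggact
Cfap44, + strand: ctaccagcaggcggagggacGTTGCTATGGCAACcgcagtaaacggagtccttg
Cfap45, + strand: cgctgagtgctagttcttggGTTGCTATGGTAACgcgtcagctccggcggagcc
Spag16, + strand: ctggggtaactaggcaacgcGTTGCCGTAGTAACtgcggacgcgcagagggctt
Dnah7b, + strand: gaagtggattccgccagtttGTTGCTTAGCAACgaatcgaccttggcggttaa
Dnah7a, - strand: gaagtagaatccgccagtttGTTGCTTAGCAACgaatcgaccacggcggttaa
Dnah6, - strand: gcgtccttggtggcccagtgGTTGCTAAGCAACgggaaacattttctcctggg
Tekt2, - strand: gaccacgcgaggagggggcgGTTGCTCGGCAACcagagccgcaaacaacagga
Dynlrb2, + strand: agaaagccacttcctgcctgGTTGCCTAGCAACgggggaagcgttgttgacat

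These windows lie at chr8:110266936-110266989 (Hydin), chr16:44394752-44394805 (Cfap44), chr1:172521091-172521144 (Cfap45) and chr1:69826847-69826900 (Spag16). The shorter ones lie at chr1:46066809-46066861 (Dnah7b), chr1:53706809-53706861 (Dnah7a), chr6:73221635-73221687 (Dnah6), chr4:126325685-126325737 (Tekt2) and chr8:116504944-116504996 (Dynlrb2). The Dnah7a and Dnah7b windows differ at 4 of 53 positions and hold the same X-box match. The forms were also found at Cfap61, Dnah9, Rsph3b and Tekt4. A forkhead motif, GTAAACA on either strand, was present in 4 of the 50 windows (8%), at Tekt3, Dnah17, Cfap43 and Cfap20, against 4.05% of all genes. A match is a run of letters and no measure of binding. The X-box was held by Dnah7b and Tekt2, which passed the expression test as lower in enhancer KO, and by 11 genes that did not pass. All 7 genes called lower had a window, but only 3 of those called higher. Foxj1, Rsph1 and Rsph4a, called higher, had no window and were not searched. The X-box can therefore not be compared between genes called higher and lower.

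In the comparison of enhancer KO with WT, the 57 genes did not move as a block. Of the 54 tested, 6 rose in enhancer KO (Foxj1, Rsph4a, Rsph1, Rsph9, Tekt5 and 1700012B09Rik) and 7 fell (Dnah7b, Dnah11, Ccdc39, Tekt2, Cfap46, Cfap74 and Cfap69), while 41 did not pass an adjusted p of 0.05. That is 11.1% higher and 13% lower, against 13.4% higher and 17.9% lower among all 15846 genes tested, of which 31.3% were called in either direction. The median log2 fold change was 0.07 over the 54 genes, with 32 above 0 and 22 below, and 0.00 over all genes tested. Enhancer KO and WT ranges did not overlap for 14 of the 54 (25.9%), against 44.8% of all genes, with 7 genes above WT and 7 below, against 20.5% and 24.3% of all genes. In bulk samples fewer cells of a type and less RNA per cell cannot be told apart, and this holds for every difference given here.

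**Figure D1:**
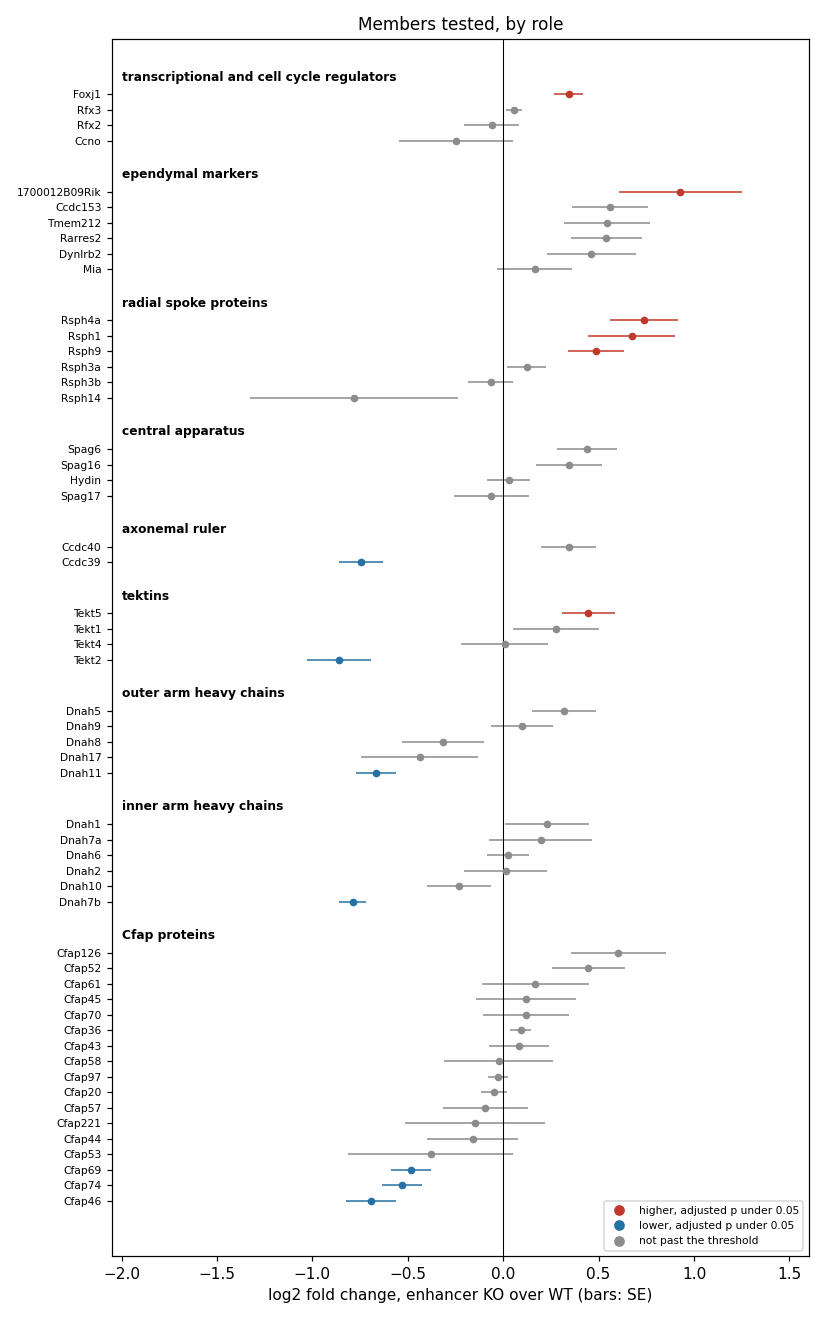
Log2 fold change of enhancer KO over WT (x axis, bars are the SE) for the 54 genes tested, grouped down the page by role, with genes past an adjusted p of 0.05 in red (higher) or blue (lower). All 6 ependymal markers lie right of 0 with 1 past the threshold, and the 3 red radial spoke genes are Rsph4a, Rsph1 and Rsph9. The 7 blue genes are spread over heavy chains, the ruler, the tektins and the Cfap group.

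The summed level of all 57 genes was 480.7, 469.9 and 421.6 CPM in the enhancer KO libraries, against 460.5, 451.2 and 459.5 CPM in the WT libraries. The enhancer KO libraries lay on both sides of WT, and the lowest of all was enhancer KO replicate 3. Rfx3 and Cfap36 added most to this sum, at a mean over the libraries of 65.0 and 63.5 CPM. The order differs per transcript length (TPM), where the most abundant was Cfap36 at 127 TPM in enhancer KO and 119 TPM in WT. Mia followed at 40.7 TPM in enhancer KO and 36.2 TPM in WT. Foxj1 stood at 39.8 TPM in enhancer KO and 31.4 TPM in WT, and Rarres2 at 38.2 TPM in enhancer KO and 26.2 TPM in WT. Cfap20, a protein of the doublet microtubules, stood at 24.6 TPM in enhancer KO and 25.5 TPM in WT, Rfx3 at 23.0 TPM in enhancer KO and 22.2 TPM in WT, and Cfap97 at 20.6 TPM in enhancer KO and 21.04 TPM in WT. Of these 7, only Foxj1 passed the test between the groups, and Cfap36, Rfx3, Cfap97 and Cfap20 had log2 fold changes between -0.05 and 0.09. The heavy chains were low by this measure, and the highest of them over both groups, Dnah6, averaged 5.67 TPM in enhancer KO and 5.58 TPM in WT. In CPM, which is not divided by length, the inner arm chains summed to 54.2 in enhancer KO and 62.2 in WT. The outer arm chains summed to 42.4 CPM in enhancer KO and 50.7 CPM in WT.

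Among the regulators, Foxj1, the forkhead factor required for motile cilia, was higher in enhancer KO. It measured 35.1, 32.3 and 29.5 CPM in the enhancer KO libraries, against 23.7, 25.4 and 27.1 CPM in the WT libraries. Every enhancer KO library was above every WT library, with a log2 fold change of 0.34 ± 0.0753 (SE; adjusted p = 0.00471 by edgeR). The call was kept when any 1 library was left out, and not when a fold of at least 1.2 was required (adjusted p = 0.388).

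The other regulators did not pass the test. Rfx3 measured 66.9, 66.2 and 65.7 CPM in enhancer KO and 63.1, 62.5 and 65.3 CPM in WT. Its enhancer KO libraries were all above WT, but by a log2 fold change of 0.06 ± 0.0420 (SE; adjusted p = 0.333 by edgeR), which passed only once a trend over gene structure was removed (adjusted p = 0.035). Rfx2 averaged 3.62 ± 0.471 CPM in enhancer KO and 3.77 ± 0.169 CPM in WT (SD, n = 3 each). Ccno, a cyclin-like protein that multiciliated cells need to make centrioles, averaged 0.487 CPM in enhancer KO and 0.577 CPM in WT. Mcidas, an early switch of the multiciliated state, stood at 0.273 CPM in enhancer KO and 0.281 CPM in WT and was too low to be tested.

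**Figure D2:**
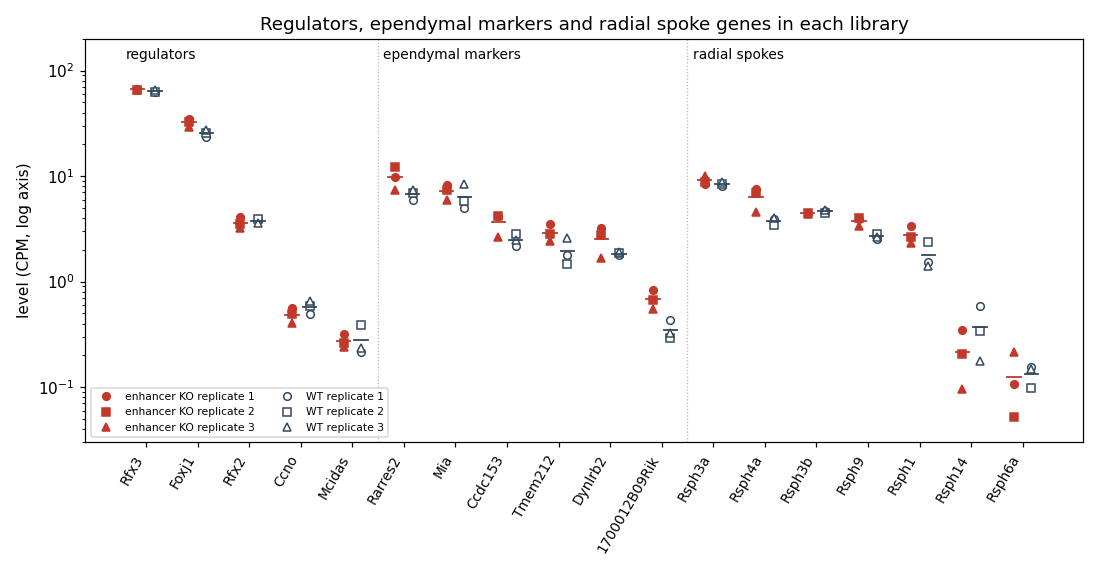
Levels in CPM (y axis, log scale) of the regulators, ependymal markers and radial spoke genes in each library, with enhancer KO as filled red symbols left of WT as open symbols and a line at each group mean. For Rsph4a, Rsph9, Foxj1, 1700012B09Rik and, narrowly, Rfx3 all 3 enhancer KO symbols lie above all WT symbols. For every ependymal marker the triangle of enhancer KO replicate 3 is the lowest red symbol.

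The ependymal markers were detected in all 6 libraries, at low levels, and all 6 had a log2 fold change above 0, with a median of 0.54. Only 1700012B09Rik, a ciliary gene of ependymal cells, passed the test. It measured 0.824, 0.676 and 0.551 CPM in the enhancer KO libraries, against 0.432, 0.293 and 0.326 CPM in the WT libraries. The groups did not overlap, and the log2 fold change was 0.93 ± 0.322 (SE; adjusted p = 0.0455 by edgeR). The call was lost without WT replicate 2 (0.107), WT replicate 3 (0.14), enhancer KO replicate 1 (0.145) or enhancer KO replicate 2 (0.0994), all as adjusted p. It was also lost with DESeq2 (adjusted p = 0.171), the replicate block (0.0579) and no filter beyond 1 read (0.054), and was made in 7 of 17 alternative settings.

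The other 5 markers overlapped between the groups. Ccdc153, a coiled-coil protein used to mark ependymal cells, measured 4.15, 4.16 and 2.64 CPM in enhancer KO and 2.19, 2.83 and 2.46 CPM in WT (log2 fold change 0.56 ± 0.200 SE; adjusted p = 0.0511 by edgeR). Rarres2, which encodes the secreted protein chemerin, measured 9.92, 12.2 and 7.31 CPM in enhancer KO and 5.89, 6.89 and 7.46 CPM in WT (0.54 ± 0.184, adjusted p = 0.0531). Tmem212, a membrane protein of ependymal cells, measured 3.51, 2.81 and 2.42 CPM in enhancer KO and 1.79, 1.47 and 2.60 CPM in WT (0.54 ± 0.224, adjusted p = 0.0856). In each of these 3 genes enhancer KO replicates 1 and 2 were above all WT libraries and replicate 3 was within the WT range. Dynlrb2, a dynein light chain, had enhancer KO replicates 1 and 2 above and replicate 3 below all WT libraries, with 3.19, 2.78 and 1.68 CPM in enhancer KO and 1.79, 1.86 and 1.89 CPM in WT (0.46 ± 0.233, adjusted p = 0.16). Mia, a secreted protein, measured 8.27, 7.44 and 5.99 CPM in enhancer KO and 5.03, 5.81 and 8.38 CPM in WT (0.16 ± 0.194, adjusted p = 0.57).

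Without enhancer KO replicate 3, Ccdc153 (adjusted p = 0.00445), Rarres2 (0.00127), Tmem212 (0.0438) and Dynlrb2 (0.0118) passed the test as higher. That library was the lowest enhancer KO library in these same genes, so their calls without it are no separate result. Reads of Rarres2 and of Lrrc61 on the opposite strand share 328 bases of exon, and Mia shares exons with a readthrough gene on its own strand. The values of both genes are therefore less certain than those of the others.

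Of the radial spoke genes, 3 of the 6 tested rose and none fell, against 13.4% higher and 17.9% lower among all genes, and their median log2 fold change was 0.31. Rsph4a, Rsph1 and Rsph9, the 3 that rose, encode proteins of the spoke head. Rsph4a measured 7.52, 6.89 and 4.60 CPM in enhancer KO, against 3.89, 3.42 and 3.995 CPM in WT. The ranges did not overlap, with a log2 fold change of 0.74 ± 0.179 (SE; adjusted p = 0.00909 by edgeR). The call was kept when any 1 library was left out, and lost with a minimum fold of 1.2 (adjusted p = 0.0695) or without WT replicates 2 and 3 (0.127).

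Rsph9 measured 3.93, 4.005 and 3.33 CPM in enhancer KO, against 2.56, 2.83 and 2.66 CPM in WT, with no overlap and a log2 fold change of 0.49 ± 0.147 (SE; adjusted p = 0.0247 by edgeR). Rsph1 measured 3.38, 2.63 and 2.33 CPM in enhancer KO, against 1.54, 2.39 and 1.42 CPM in WT, with a log2 fold change of 0.67 ± 0.228 (SE; adjusted p = 0.0415 by edgeR). For Rsph1, WT replicate 2 lay just above the lowest enhancer KO library, so the ranges overlapped. The Rsph9 call was lost without WT replicate 1 (adjusted p = 0.0654), WT replicate 3 (0.0725), enhancer KO replicate 1 (0.0705) or enhancer KO replicate 2 (0.0903). The Rsph1 call was lost without WT replicate 1 (adjusted p = 0.102), WT replicate 3 (0.159), enhancer KO replicate 1 (0.148) or enhancer KO replicate 2 (0.0739). With DESeq2 neither Rsph9 (adjusted p = 0.0603) nor Rsph1 (0.0508) was called, and with replicate number as a block Rsph1 was not (0.0514).

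The other radial spoke genes did not pass the test or, for Rsph6a, were too low to be tested. Rsph3a and Rsph3b, near-identical mouse copies of a stalk gene, averaged 9.09 ± 0.894 and 4.46 ± 0.0623 CPM in enhancer KO, against 8.36 ± 0.342 and 4.66 ± 0.165 CPM in WT (SD, n = 3 each). Reads that align to both copies are not counted, so their split is uncertain. Rsph14 and Rsph6a were under 0.6 CPM in every library.

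None of the 4 genes grouped here under the central apparatus passed the test. Cfap46, Cfap69 and Cfap74, which are also tied to the central apparatus, are given with the Cfap genes below and fell. Spag6, a central pair protein, came nearest, with 5.95, 6.09 and 4.27 CPM in enhancer KO and 4.32, 3.66 and 3.97 CPM in WT (log2 fold change 0.44 ± 0.156 SE; adjusted p = 0.0505 by edgeR). Hydin, a very large central pair protein, averaged 8.86 ± 0.850 CPM in enhancer KO and 8.64 ± 1.01 CPM in WT (SD, n = 3 each). Spag16 averaged 3.78 CPM in enhancer KO and 2.98 CPM in WT, and Spag17 1.6 CPM in enhancer KO and 1.69 CPM in WT. The Spag6 symbol has been exchanged with Spag6l in annotations, so no position or length is given for it.

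Ccdc39 and Ccdc40 form together the molecular ruler that spaces dynein arms and spokes along the doublet, and their transcripts differed in direction. Ccdc39 measured 7.26, 6.55 and 5.63 CPM in enhancer KO, against 11.4, 11.4 and 9.83 CPM in WT. No enhancer KO library reached the WT range, with a log2 fold change of -0.74 ± 0.114 (SE; adjusted p = 0.000513 by edgeR). Ccdc40 measured 4.84, 3.85 and 3.93 CPM in enhancer KO and 3.48, 3.17 and 3.26 CPM in WT, with every enhancer KO library above WT but no call (0.34 ± 0.144, adjusted p = 0.0915). Ccdc39 shares 1234 bases of exon with Ttc14 on the opposite strand, and Ttc14 was itself lower, at 66.7 CPM in enhancer KO and 170 CPM in WT (log2 fold change -1.35, adjusted p = 1.93e-07). Of stranded reads, 1.62% to 1.88% fell on the other strand in a library, and the part of Ttc14 in the Ccdc39 value was not tested.

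The tektins, filament proteins inside the doublets that are also prominent in sperm tails, were split. Tekt5 was higher, with 11.4, 10.7 and 10.1 CPM in enhancer KO and 9.56, 7.86 and 6.22 CPM in WT (log2 fold change 0.45 ± 0.138 SE; adjusted p = 0.0296 by edgeR). Tekt2 was lower, with 1.62, 1.61 and 1.53 CPM in enhancer KO and 3.02, 3.03 and 2.63 CPM in WT (-0.86 ± 0.167, adjusted p = 0.00232), the largest fall of the 54 genes. Neither gene's ranges overlapped. The Tekt5 call was lost without WT replicate 2 (adjusted p = 0.0709), WT replicate 3 (0.101), enhancer KO replicate 1 (0.0858) or enhancer KO replicate 2 (0.0744). The Tekt2 call was kept under each of these. Tekt1 and Tekt4 did not pass the test, at 2.21 and 1.3 CPM in enhancer KO and 1.84 and 1.28 CPM in WT. Of 10 germ cell markers of the testis, 6 had no read in any library (Prm1, Prm2, Tnp1, Ldhc, Pgk2 and Akap4).

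Of the 11 dynein heavy chains, the motor subunits of the arms, 2 fell (18.2%) and none rose, a share lower that is near the 17.9% of all genes tested. Dnah11, an outer arm heavy chain, measured 20.5, 18.2 and 15.2 CPM in enhancer KO, against 26.8, 27.7 and 30.8 CPM in WT (log2 fold change -0.67 ± 0.103 SE; adjusted p = 0.00089 by edgeR). Dnah7b, an inner arm heavy chain, measured 12.9, 12.04 and 13.4 CPM in enhancer KO, against 22.9, 22.0 and 21.3 CPM in WT (-0.79 ± 0.0707, adjusted p = 1.17e-05). Neither gene's ranges overlapped, and both calls were kept under each alternative setting run. Dnah7a, the copy of Dnah7b whose X-box window is shown above, measured 1.62, 1.3 and 1.34 CPM in enhancer KO and 1.63, 0.684 and 1.27 CPM in WT (0.20 ± 0.270, adjusted p = 0.627). The near-identical sequence of the pair makes the split of reads between them uncertain, and the difference between their changes was not tested. Reads that align to more than 1 place, which are not counted, made up 10.2% to 11.3% of reads in enhancer KO and 7.10% to 8.21% in WT. No setting changed how these reads were handled, and their part in the Dnah7b call was not tested.

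The other outer arm chains of ependymal and airway cilia, Dnah5 and Dnah9, averaged 9.46 ± 2.08 and 12.8 ± 2.5 CPM in enhancer KO and 7.57 ± 0.988 and 11.9 ± 1.92 CPM in WT (SD, n = 3 each), and did not pass. Their sperm counterparts Dnah8 and Dnah17 averaged 1.74 and 0.435 CPM in enhancer KO and 2.15 and 0.590 CPM in WT. Of the inner arm chains, Dnah6 averaged 22.2 ± 3.67 CPM in enhancer KO and 21.8 ± 1.2 CPM in WT (SD, n = 3 each). Dnah1, Dnah2 and Dnah10 lay between 4.60 and 7.86 CPM in enhancer KO and between 5.18 and 6.61 CPM in WT, with log2 fold changes from -0.23 to 0.23. None of these 4 passed.

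**Figure D3:**
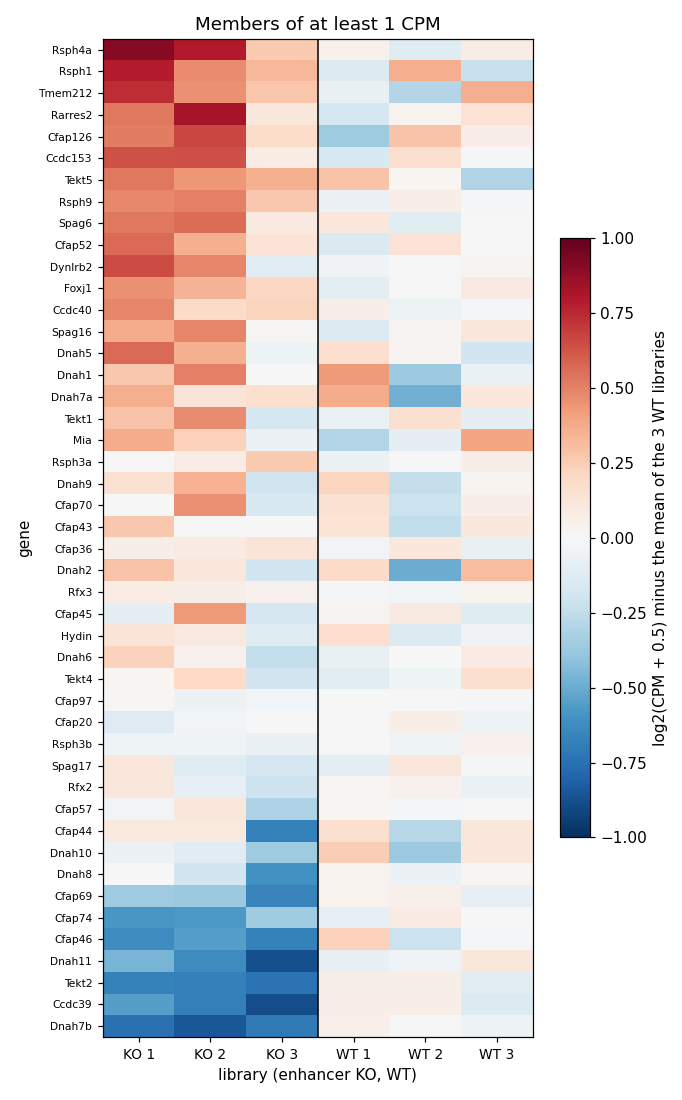
Each row is 1 of the 46 genes with a mean of at least 1 CPM and each column a library, with enhancer KO left of WT, and colour gives log2(CPM + 0.5) minus the mean of the WT libraries. The 7 rows at the bottom are blue in all 3 enhancer KO columns, while the rows at the top are red in enhancer KO replicates 1 and 2 and paler in replicate 3.

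The Cfap genes encode a mixed group of cilia and flagella proteins. Of 17 tested, 3 fell (17.6%) and none rose, with a median log2 fold change of -0.03, and the share lower is near the 17.9% of all genes tested. Cfap46 measured 4.68, 4.97 and 4.53 CPM in enhancer KO, against 8.91, 6.40 and 7.46 CPM in WT (log2 fold change -0.69 ± 0.131 SE; adjusted p = 0.00197 by edgeR). Cfap74 measured 6.09, 6.14 and 7.22 CPM in enhancer KO, against 8.82, 9.96 and 9.41 CPM in WT (-0.53 ± 0.106, adjusted p = 0.00274). Cfap46 and Cfap74 belong to the same central pair projection in the alga Chlamydomonas. Cfap69, also a central apparatus protein, measured 8.61, 8.5 and 6.91 CPM in enhancer KO, against 11.4, 11.6 and 10.5 CPM in WT (-0.48 ± 0.105, adjusted p = 0.00447). None of the 3 overlapped between the groups. With a minimum fold of 1.2, Cfap74 (adjusted p = 0.054) and Cfap69 (0.101) were no longer called. The largest rise among the Cfap genes was Cfap126, at 2.07 ± 0.425 CPM in enhancer KO and 1.39 ± 0.405 CPM in WT (SD, n = 3 each), which did not pass (0.60 ± 0.249, adjusted p = 0.0873).

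The genes that rose and those that fell differed in median length, which the choice of genes did not use. Their ranges overlapped, and the difference was not tested. The 6 that rose had a median exonic length of 1590 bases (688 to 3650), the 7 that fell one of 7242 bases (1542 to 14072), and the 40 others with a known structure one of 3648 bases. Median total intron length was 17374 bases in those that rose (2073 to 35736) and 74687 bases in those that fell (2026 to 306990). In the others it was 58223 bases. With a smooth trend over GC content and the lengths of introns and exons removed from each library, the test left 7 higher and 7 lower, with all 7 falls kept and 4 of the 6 rises kept (Rsph1 at adjusted p = 0.0569 and 1700012B09Rik at 0.0724 were lost).

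Other genes of the cilium were read from lists chosen by function. Of 12 dynein arm assembly factors tested, Ccdc103 rose (log2 fold change 0.78, edgeR adjusted p = 0.0452) and Spag1 fell (-0.59, 0.000495). Of 14 intermediate, light and docking chains, Wdr78 fell (-0.41, adjusted p = 0.0239). Of 10 genes of the nexin-dynein regulatory complex, which links neighbouring doublets, Iqca rose (0.90, adjusted p = 0.0281) and Gas8 fell (-0.32, 0.0241). Of 22 other axonemal genes, Spef1 (0.42, adjusted p = 0.0159) and Enkur (0.69, 0.0351) rose and Stk36 fell (-0.44, 0.0310). The called share was 16.7%, 7.14%, 20% and 13.6% in these 4 lists in turn, against 31.3% of all genes tested.

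In the lists nearer the basal body most calls were falls, as were 57.3% of the calls among all genes tested. Of 18 genes of the multiciliated programme and basal bodies, 8 fell and 1 rose, against 17.9% lower and 13.4% higher among all genes. The falls included Cep152, a centriole duplication scaffold (-0.63, edgeR adjusted p = 0.00156), Rfx1 (-0.51, 0.00165), Tubgcp3, a gamma-tubulin complex subunit (-0.23, 0.00429), and E2f4 (-0.25, 0.00862). Gmnc, named here after its value was seen, averaged 1.68 ± 0.461 CPM in enhancer KO and 2.88 ± 0.478 CPM in WT (SD, n = 3 each), with a log2 fold change of -0.80 and an adjusted p of 0.0174. Of 29 intraflagellar transport genes, which also build the immotile primary cilium of neurons, 7 fell (24.1%) and 1 rose (3.45%). Among all genes 17.9% were lower and 13.4% higher. The share called in this list, 27.6%, was below the 31.3% of all genes tested. The lead falls were Ttc21b (-0.55, adjusted p = 9.53e-05), Ift172 (-0.43, 0.000323), Wdr19 (-0.38, 0.000444) and Dync2h1 (-0.29, 0.000692). With library size alone as the scaling, the falls numbered 3 in the basal body list and 4 in the transport list.

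Of 23 further ependymal genes, 4 rose (17.4%) and 1 fell (4.35%), against 13.4% higher and 17.9% lower among all genes. Sntn, which encodes a protein of the ciliary tip, averaged 0.784 ± 0.180 CPM in enhancer KO and 0.301 ± 0.0781 CPM in WT (SD, n = 3 each), with a log2 fold change of 1.42 (edgeR adjusted p = 0.00752). S100b (0.23, adjusted p = 0.00791) and Dbi (0.28, 0.0115) also rose, both of them genes that astroglia express at high levels as well. Ttll3, a tubulin glycylase of motile cilia, averaged 13.03 ± 0.512 CPM in enhancer KO and 23.3 ± 1.63 CPM in WT (SD, n = 3 each), with a log2 fold change of -0.84 (adjusted p = 1.03e-05). Without enhancer KO replicate 3, the rises in this list numbered 8, against 1992 among all 15984 genes tested in that fit. The list summed to 1192, 1205 and 1107 CPM in enhancer KO, with replicate 3 the lowest. More rises without that library are therefore no separate result.

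Enhancer KO replicate 3 stood apart from the other enhancer KO libraries in most of these genes. Among the 46 genes with a mean of at least 1 CPM, it was the lowest of the 3 enhancer KO libraries in 38 (82.6%), against 35.6% of 14243 genes at that level. Enhancer KO replicates 1 and 2 were both above all WT libraries in 17 of the 46 (37.0%), against 28.6% of all genes. Without replicate 3, 15 of the 55 genes of the set tested were called higher and 7 lower. Among all 15984 genes tested in that fit, 1992 were higher and 2642 lower. Replicate 3 was the lowest in most of these same genes, so more rises without it are no separate result. Without enhancer KO replicate 1 or 2, only Rsph4a and Foxj1 were called higher, and the 7 falls were kept each time. Without WT replicate 3, 3 genes were called higher (Rsph4a, Foxj1 and Tmem212), and the 7 falls were kept. Calls also dropped among all genes, from 2120 higher and 2844 lower with every library kept. They numbered 1690 higher and 2181 lower without enhancer KO replicate 1, and 1420 and 2232 without enhancer KO replicate 2. Without WT replicate 3 they were 1479 and 2260.

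Markers of neighbouring cell types varied among the same libraries. The summed level of 20 choroid plexus epithelium genes was 3177, 3317 and 1617 CPM in enhancer KO and 2382, 2824 and 3308 CPM in WT. None of these 20 was called, against 31.3% of all genes tested. Their median log2 fold change was -0.03, and the lowest library was enhancer KO replicate 3. Its 2 most abundant genes were Ttr, at 1704, 1874 and 736 CPM in enhancer KO and 1081, 1361 and 1719 CPM in WT, and Enpp2. The 10 leptomeningeal fibroblast genes summed to 1891, 1654 and 998 CPM in enhancer KO and 1151, 1136 and 1543 CPM in WT, and none was called. In both lists, as in the ependymal markers, enhancer KO replicate 3 was the lowest of its group and WT replicate 3 the highest of its group. The ependymal marker sums were 29.9, 30.1 and 20.6 CPM in enhancer KO and 17.1, 19.1 and 23.1 CPM in WT. The part of choroid plexus and meninges in the ciliary gene levels was not tested.

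**Figure D4:**
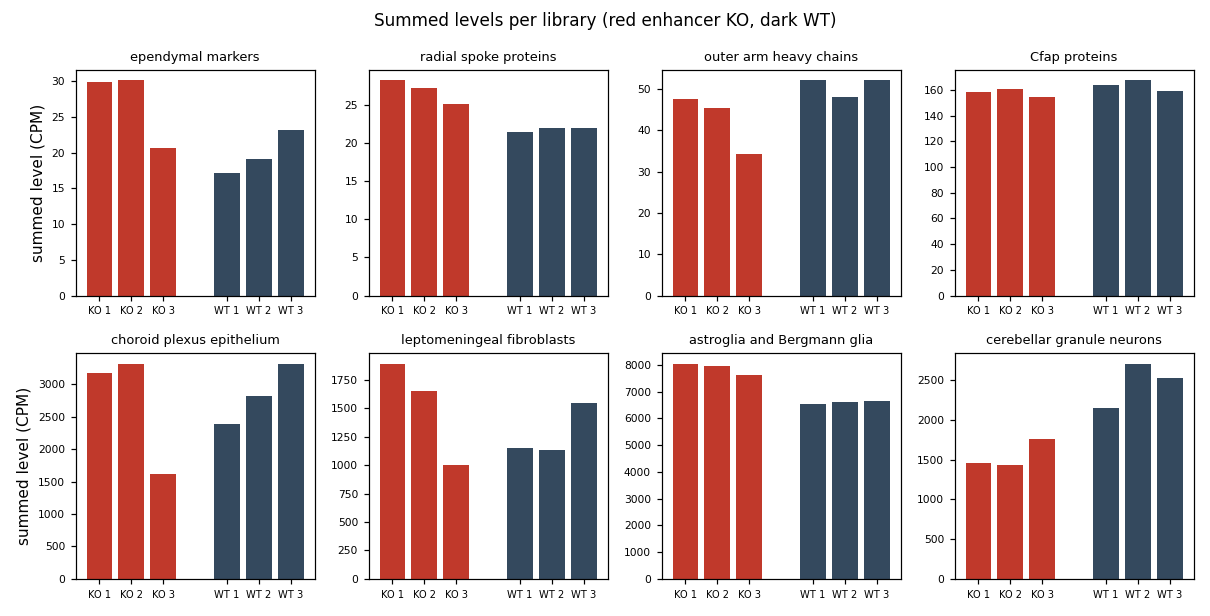
Summed levels in CPM (y axes, each from 0) of 4 gene groups of the cilium and ependyma in the upper row and of 4 lists of cell type markers in the lower row, 1 bar per library, with enhancer KO in red left of WT in dark. Enhancer KO replicate 3 is the lowest enhancer KO bar in every panel except granule neurons, where it is the highest. The 3 enhancer KO bars are all above WT for radial spoke proteins and astroglia. They are all below WT for outer arm heavy chains and granule neurons.

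For astroglial and granule neuron markers the summed levels of the groups did not overlap. The 10 astroglial markers summed to 8049, 7946 and 7618 CPM in enhancer KO and 6547, 6620 and 6641 CPM in WT. Of these 10, 3 were called higher (30%) and none lower, a called share near the 31.3% of all genes tested. The 10 granule neuron markers summed to 1459, 1429 and 1763 CPM in enhancer KO and 2157, 2710 and 2530 CPM in WT. All 10 were called lower, against 17.9% of all genes tested. The 14 midbrain and tectal markers summed to 110, 102 and 102 CPM in enhancer KO and 106, 72.3 and 81.7 CPM in WT, where WT replicate 1 lay among the enhancer KO libraries and the groups overlapped. CPM values are shares of each library, so a difference in some genes can shift the CPM of others. The part of these differences in the ciliary gene levels was not tested.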

How the data were processed

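The authors used Trimmomatic and STAR on the mm10 genome, per the submitters' processing notes. No source used here gives their versions, annotation or settings. The deposited values are raw read counts per gene, with no normalization by the authors. The 4 rows that name no gene held 35.9% to 61.9% of reads and stayed out of library sizes and tests. The column for 1 strand was used, with 1.62% to 1.88% of stranded reads on the other.

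Counts were filtered with filterByExpr, scaled by TMM and compared with edgeR 4.0.16 (R 4.3.3; robust quasi-likelihood test, two-sided, Benjamini-Hochberg over 15846 genes, threshold 0.05). The SE was derived from the log2 fold change and F statistic. Lengths and overlaps came from GENCODE mouse release 21 and promoters from RefSeq. The fit was tested on simulated data. Alternatives were other scalings, filters, strands and thresholds, a replicate block, trend removal (mgcv 1.9.3), DESeq2 1.42.0, limma-voom 3.58.1 and leaving out libraries.

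Members and lists were chosen with earlier results of these data known. Members named in full were those called with at least 1 CPM, the 10 highest in TPM, the ependymal markers and the regulators. Each pathway list gave up to 4 calls with the smallest adjusted p. Gmnc and members named beyond this were named after their values were seen.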

Additional observations from a re-analysis of the deposited data

How the results depend on the processing

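The 7 falls were kept when any 1 library was left out and under RLE scaling, library size alone, both filters, the replicate block, the unstranded column, trend removal, DESeq2 and limma-voom. A minimum fold of 1.2 left 5 of them, and a fit without WT replicates 2 and 3, which keeps 1 WT library assumed to vary like the others, left 6. The rises were less stable: 10 with library size alone, 0 with the minimum fold, 13 at a threshold of 0.1, 2 without WT replicates 2 and 3, and 2 to 15 when 1 library was left out. DESeq2 called 4, with 3 of the 6 rises kept (Rsph4a, Foxj1 and Tekt5), and limma-voom 6. Among all genes, 2120 were higher and 2844 lower, against 83 and 908 with the minimum fold. Lower calls numbered 1689 with library size alone and 1640 without WT replicates 2 and 3. Library size alone put 43.8% of calls on the lower side, against 57.3% with TMM. The cause of these changes was not tested. The log2 ratio of the summed level of the 57 genes, enhancer KO over WT, was 0.0011 in CPM and 0.14 per length. Log2 fold changes near 0 changed sign for Cfap20 (0.0145), Cfap97 (0.0362) and Rfx2 (0.00171) with library size alone. When 1 library was left out, the sign also changed for Cfap20 (-0.076 to 0.0022) and Rfx2 (-0.15 to 0.0269), but not for Cfap97. With replicate number as a block, 4 genes were higher and 7 lower, and 1961 and 2635 among all genes. The numbers did not pair the libraries: deviations of same-numbered libraries correlated at 0.0526, -0.0386 and -0.0795, and not every library correlated best with its own number. Several members lay under 1 CPM, where a change would need to be large to be detected.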
